A study of Mus musculus with 2 samples.

Results

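The hepatocyte nuclear factors and Foxa proteins described here are 8 transcription factor genes, Hnf4a, Foxa1, Foxa2, Foxa3, Onecut1, Onecut2, Prox1 and Tbx3. They were chosen by symbol, not by level, and all 8 were found among the 43346 Ensembl genes of the deposited tables. Their 24 transcripts were read from the 103639 Ensembl transcripts, of which 22 could be placed in GENCODE release M21 of the mouse genome (GRCm38). The study sequenced RNA above 200 nt from whole liver of B6NCrl mouse embryos at embryonic day 16.5 (E16.5), with no treatment and no engineered allele named. Its 2 libraries form 1 group and come from pools of both sexes, with 41 embryos stated for replicate 2 and no number for replicate 1. Both carry the same donor identifier, and 10 ng of mirVana-extracted RNA with added spike-ins went into the SMARTer ultra-low input kit. Levels are therefore described with both library values, and no p-value was possible.

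These factors work as a network that binds the enhancers and promoters of liver genes and of one another. Foxa proteins are forkhead pioneer factors that open chromatin as the liver bud forms, HNF4A is an orphan nuclear receptor needed for the hepatocyte programme, and the Onecut proteins (HNF6 and its relative) steer the choice between hepatocyte and bile duct cell. Prox1 is needed for hepatoblasts to leave the liver bud and also marks lymphatic endothelium, and Tbx3 is a repressor that favours hepatoblast growth and hepatocyte fate over bile duct fate.

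Hnf4a (ENSMUSG00000017950.12, chr2:163506808-163572910, plus strand) has a pair of promoters, and the start of its RNA decides which N-terminus the protein carries. P1, the downstream promoter, drives the forms known from adult hepatocytes, and P2, 40.4 kb upstream, drives forms known from pancreas, gut and early liver. The coding stretches of both alternative exons 1 (capitals) and the start of the shared exon 2 (lower case) are shown because reads in them separate the forms. Sequences are from the GRCm38 genome, the P1 exon at chr2:163547332-163547419 and the P2 exon at chr2:163506939-163506987, each joined to chr2:163551577-163551600.
Hnf4a P1 exon 1: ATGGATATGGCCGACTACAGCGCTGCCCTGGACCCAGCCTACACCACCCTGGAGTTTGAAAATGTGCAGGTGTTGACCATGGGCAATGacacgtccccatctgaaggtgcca
Hnf4a P2 exon 1: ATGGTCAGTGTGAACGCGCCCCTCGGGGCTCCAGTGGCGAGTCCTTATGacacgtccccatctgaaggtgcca

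The bases before both Hnf4a starts are printed because the shares below compare these promoters, and those before the Foxa3 start because Foxa3 was the most abundant of the 8 genes. They are RefSeq sequence of build GRCm38.p6, Hnf4a P2 from chr2:163506607-163506807 (plus strand), Hnf4a P1 from chr2:163546905-163547154 (plus strand) and Foxa3 from chr7:19023540-19023789 (minus strand). Capitals mark an exact match to a searched motif, read as the strand printed.
Hnf4a P2 promoter: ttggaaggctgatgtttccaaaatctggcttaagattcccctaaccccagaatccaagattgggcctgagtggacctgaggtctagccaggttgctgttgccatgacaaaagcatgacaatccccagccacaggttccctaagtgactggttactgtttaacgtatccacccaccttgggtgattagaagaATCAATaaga
Hnf4a P1 promoter: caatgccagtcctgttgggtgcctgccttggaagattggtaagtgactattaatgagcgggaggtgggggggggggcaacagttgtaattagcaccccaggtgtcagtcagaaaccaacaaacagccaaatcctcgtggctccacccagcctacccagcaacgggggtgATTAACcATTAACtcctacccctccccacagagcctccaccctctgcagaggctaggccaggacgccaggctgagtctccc
Foxa3 promoter: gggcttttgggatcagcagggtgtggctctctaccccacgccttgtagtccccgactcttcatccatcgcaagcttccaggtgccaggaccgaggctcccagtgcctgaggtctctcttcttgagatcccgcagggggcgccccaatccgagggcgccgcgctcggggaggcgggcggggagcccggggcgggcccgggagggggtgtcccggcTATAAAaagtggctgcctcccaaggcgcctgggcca
The P2 window held 1 match to the CUT motif ATTGAT, on the minus strand, with its first printed base at -59 from the RefSeq start (all positions below are counted the same way). In the P1 window the HNF1 motif GTTAAT matched 2 times on the minus strand, at -81 and -74, so that the matches stand almost side by side. The first bases of the P1 window lie within exon 1 of Hnf4a-203, a non-coding model. The Foxa3 window held a TATA box, TATAAA, on the plus strand at -36.

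RefSeq windows, each of 250 bases before to 50 after a start, were found for 6 of the 8 genes, 10 windows in all. Both strands were searched for 10 exact motifs. They were the forkhead motif TGTTTAC and its variant spelled TATTTAC, the HNF4 motifs spelled CAAAGTCCA or else CAAAGTTCA, and the CUT motif ATTGAT with its variant spelled ATCGAT. The others were the HNF1 motif GTTAAT, the T-box motif AGGTGTGA, the C/EBP motif TTGCGCAA and the TATA box written TATAAA. The 10 windows held 9 matches, all before the start. Beyond those above, Foxa1 held the first forkhead motif at -141 on the minus strand. Foxa2 held the CUT motif at -213 of its most upstream start, and the HNF1 motif at -176 and a TATA box at -208, both on the minus strand, of its most downstream start. Prox1 held a TATA box at -34 on the minus strand. Of all 32851 RefSeq windows, 7.54% held the first CUT motif, 7.1% the HNF1 motif, 13.6% a TATA box and 3.65% the first forkhead motif. The other motifs had no match in the 10 windows and stood in 0.183% to 3.04% of all windows. A match describes these letters only, and binding was not measured.

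Depth was alike, at 44477766 expected counts in the library of replicate 1 and 48820712 in that of replicate 2, of which spike-ins took 2.5% and 3.19%. Expected counts are read numbers in which reads shared between transcripts are divided, and TPM is their share per transcript length, scaled to a sum of 1000000 over a table. The 8 factors together held 10317.36 and 11950.41 expected counts, or 84.52 and 90.15 TPM. The tissue was liver by its markers: all 8 hepatocyte and hepatoblast markers were expressed, from 106.9 TPM for Krt18 to 13666.97 TPM for Afp in replicate 1. All 6 erythroid markers were expressed too, led by Hbb-bs at 75216.92 and 72809.16 TPM, so blood-forming cells share these libraries with hepatocytes.

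The limit for expression was a TPM of at least 1 in each library. By this limit 6 of the 8 factors were expressed, beside 52.2% of protein-coding genes and 27.9% of all Ensembl genes. The exceptions were Onecut2 and Foxa1, which lay below 1 TPM in both libraries, though Onecut2 had 396 and 444 expected counts and Foxa1 had 84 and 88. Their levels spanned a wide range, from 54.985 TPM for Foxa3 to 0.64 TPM for Foxa1. The median protein-coding gene stood at 1.485 TPM, and the median expressed one at 10.83 TPM, so only Foxa3 and Hnf4a exceeded a typical expressed gene. Since whole liver was read, fewer cells of a type and less RNA per cell cannot be told apart in any of these levels.

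**Figure D1:**
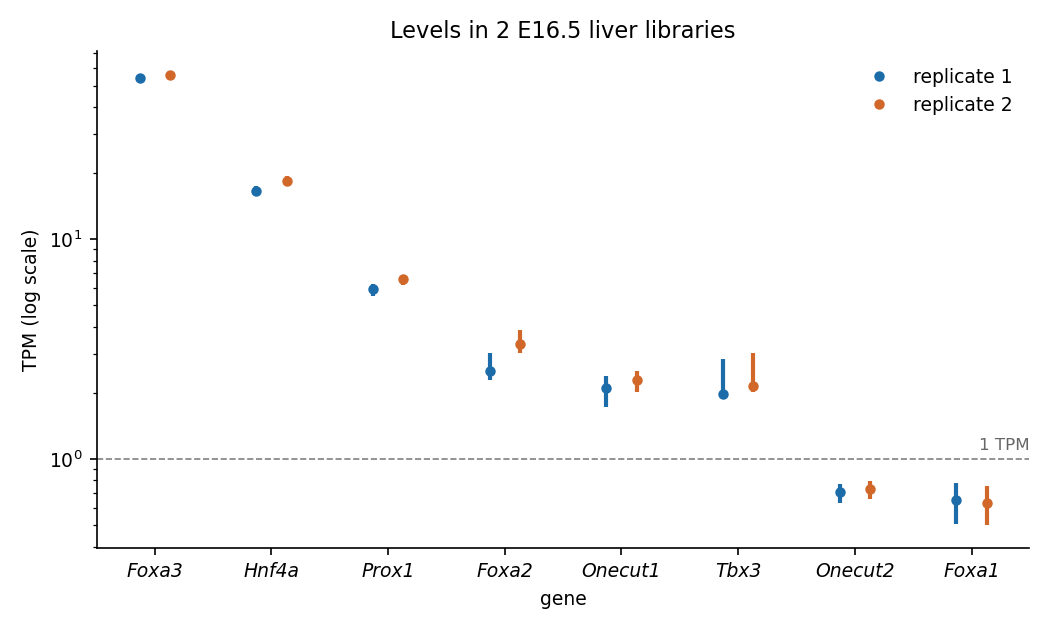
TPM (log scale) of the 8 factors in replicate 1 and replicate 2 of E16.5 liver, with vertical lines for the deposited TPM intervals, whose level is not stated. Levels fall from Foxa3 at 54.03 and 55.94 TPM to Foxa1 at 0.65 and 0.63 TPM, and only Onecut2 and Foxa1 sit below the dashed line at 1 TPM.

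Foxa3 (ENSMUSG00000040891.5, chr7:19013284-19023538, minus strand), the forkhead factor known as HNF3-gamma, was the most abundant of the 8. It stood at 54.03 TPM in replicate 1 and 55.94 TPM in replicate 2, a mean of 54.985 ± 1.351 TPM (SD, n = 2). That placed it at the 92.4th percentile of protein-coding genes. The libraries were close, with a TPM ratio of replicate 2 over replicate 1 of 1.04 (95% interval 0.994 to 1.08, counting error only, as for all ratios below).

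Foxa2 (HNF3-beta; ENSMUSG00000037025.7, chr2:148042877-148046969, minus strand), which acts with Foxa1 in liver specification, was read at 2.52 TPM in replicate 1 and 3.34 TPM in replicate 2 (2.93 ± 0.5798 TPM, SD, n = 2). The corresponding expected counts were 213 and 306. Replicate 2 was the higher, by 1.33 times (1.11 to 1.59), the widest gap of the 8 genes, though the deposited intervals of 2.278 to 3.045 and 3.039 to 3.85 TPM just overlapped. Foxa1 (HNF3-alpha; ENSMUSG00000035451.6, chr12:57540628-57546916, minus strand) stood at 0.65 TPM in replicate 1 and 0.63 TPM in replicate 2, from 84 and 88 expected counts. It was the lowest of the 8, with a mean of 0.64 ± 0.01414 TPM (SD, n = 2) and a ratio of 0.969 (0.711 to 1.32).

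Within the Foxa family the RNA was therefore nearly all Foxa3. Foxa3 made up 94.5% of the summed Foxa TPM in replicate 1 and 93.4% in replicate 2, a mean of 93.92% ± 0.767 (SD, n = 2). Foxa2 held 4.99% ± 0.827 and Foxa1 1.094% ± 0.06. Counted without division by length the Foxa3 share was 93.11%, so the imbalance does not come from transcript length.

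HNF4A is the nuclear receptor of the set. Hnf4a stood at 16.58 TPM in replicate 1 and 18.47 TPM in replicate 2, a mean of 17.525 ± 1.336 TPM (SD, n = 2), at the 80.6th percentile of protein-coding genes. It was the only factor whose deposited intervals, 15.8 to 17.53 and 17.55 to 19.4 TPM, did not overlap, beside 20.6% of the 16258 genes whose expected counts averaged at least 10. The gap between those intervals was narrow, and the ratio was 1.11 (1.06 to 1.17), from 2832 and 3342 expected counts. Its paralog Hnf4g, better known from gut and pancreas, was read at 0.32 and 0.87 TPM (29 and 86 expected counts). Hnf4a thus held 98.1% of the pair in replicate 1 and 95.5% in replicate 2.

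Onecut1 (HNF6; ENSMUSG00000043013.10, chr9:74861921-74891781, plus strand) stood at 2.1 TPM in replicate 1 and 2.29 TPM in replicate 2, a mean of 2.195 ± 0.1344 TPM (SD, n = 2). Onecut2 (ENSMUSG00000045991.14, chromosome 18) lay at 0.71 and 0.73 TPM, a mean of 0.72 ± 0.01414 TPM (SD, n = 2). Neither gene separated the libraries, with ratios of 1.09 (0.94 to 1.27) for Onecut1 and 1.03 (0.896 to 1.18) for Onecut2. Onecut1 made up 74.7% and 75.3% of the family's TPM, and Onecut2 25.3% and 24%. The third member, Onecut3, had no counts in replicate 1, where 3 counts would be 0.0152 TPM, and 4 counts in replicate 2. Without division by length the order of the pair turned: Onecut2 took 53.54% of the family's expected counts and Onecut1 46.22%, because the Onecut2 transcripts, at 13391 and 13389 nt, are far longer than the 3957 nt of Onecut1-201.

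Prox1 (ENSMUSG00000010175.9, chr1:190118035-190170714, minus strand), a Prospero homeobox factor that also restrains HNF4A activity, was the third most abundant. It stood at 5.95 TPM in replicate 1 and 6.6 TPM in replicate 2 (6.275 ± 0.4596 TPM, SD, n = 2), with a ratio of 1.11 (1.04 to 1.18). Lymphatic endothelium also makes Prox1, and of 7 endothelial markers 5 were expressed and none passed 1.5-fold between libraries. Lyve1, a marker of both sinusoidal and lymphatic endothelium, led them at 22.38 and 22.55 TPM, while the lymphatic chemokine Ccl21a was lowest at 0.75 and 0.79 TPM. The part of endothelial cells in the Prox1 level was not tested. Prox2, its paralog, stood at 0.62 and 0.85 TPM, so Prox1 held 89.58% ± 1.39 (SD, n = 2) of the pair.

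Tbx3 (ENSMUSG00000018604.14, chr5:119670669-119684724, plus strand) stood at 1.98 TPM in replicate 1 and 2.15 TPM in replicate 2, a mean of 2.065 ± 0.1202 TPM (SD, n = 2). Its ratio was 1.09, with a lower bound of 0.946, from 392 and 453 expected counts. Among 17 T-box genes it was 1 of 2 expressed, the other being Mga, a MAX-binding repressor, at 5.56 and 5.27 TPM. Tbr1, Tbx22 and the founding gene of the family, Brachyury, were at 0 in both libraries.

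Ordered by mean TPM, the genes ran Foxa3, Hnf4a, Prox1, Foxa2, Onecut1, Tbx3, Onecut2, Foxa1, and each library alone gave the same order. Neighbours were called distinct only where both libraries and both deposited intervals were apart, which held for 4 of 7 steps. Foxa3 exceeded Hnf4a by 3.14 times, Hnf4a exceeded Prox1 by 2.79 times, Prox1 exceeded Foxa2 by 2.14 times and Tbx3 exceeded Onecut2 by 2.87 times. The steps from Foxa2 to Onecut1 (1.33 times), Onecut1 to Tbx3 (1.06 times) and Onecut2 to Foxa1 (1.12 times) did not meet the rule. For Foxa2 and Onecut1 the intervals overlapped in replicate 1, at 2.278 to 3.045 and 1.731 to 2.381 TPM. In replicate 2 they were apart, at 3.039 to 3.85 and 2.016 to 2.525 TPM. Foxa2, Onecut1 and Tbx3 thus form a middle tier whose order the rule does not settle. Within it Foxa2 stood highest in both libraries. By the deposited posterior mean TPM, a second estimate, Tbx3 stood above Onecut1 at 2.33 and 2.48 against 2.05 and 2.27.

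The Hnf4a start sites were compared next. Of the 5 annotated transcripts, Hnf4a-205 starts at P2 (chr2, 163506808). Hnf4a-201, Hnf4a-202 and Hnf4a-203 start within 500 bases of each other at P1 (163546817 to 163547188), and Hnf4a-204 starts at 163550083. The P1 group held 15.71 TPM in replicate 1 and 17.13 TPM in replicate 2, or 94.8% and 92.7% of the gene (93.75% ± 1.48, SD, n = 2). The P2 transcript held 0.87 and 1.34 TPM, or 5.25% and 7.26% (6.255% ± 1.42), and Hnf4a-204 was at 0 in both. E16.5 liver Hnf4a RNA was thus assigned mainly to P1.

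**Figure D2:**
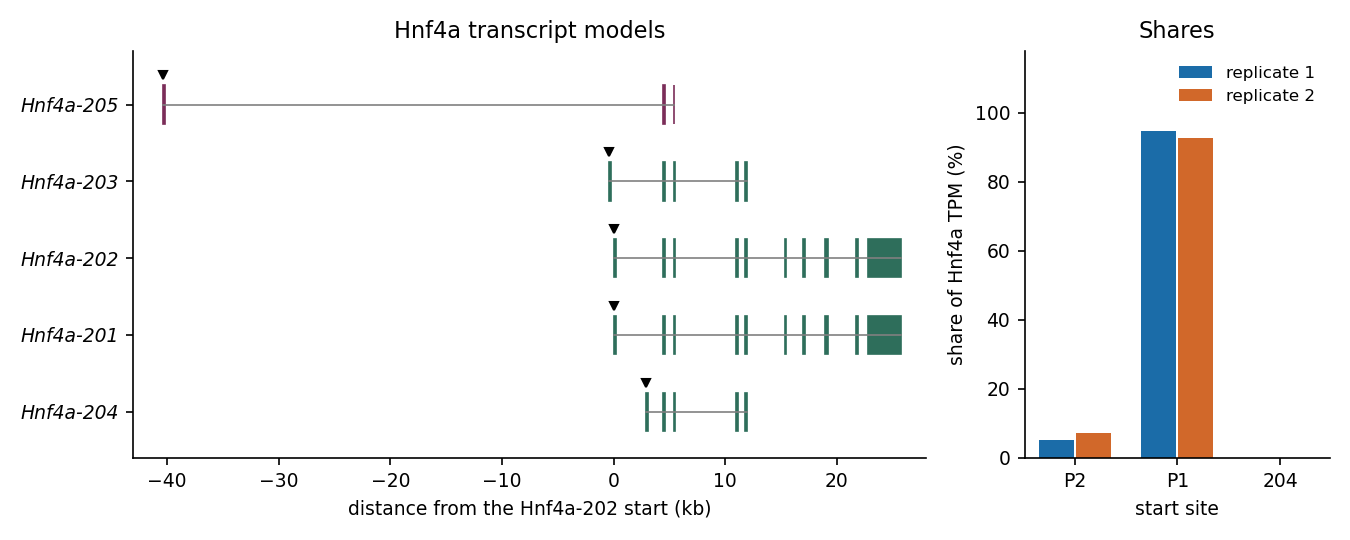
Left, exons (bars) of the 5 Hnf4a transcript models against the distance in kb from the start of Hnf4a-202, with arrowheads at each start and thin exons drawn at line width; right, the share of Hnf4a TPM by start site in each library (bars, in percent). Hnf4a-205 starts 40.4 kb upstream at P2 and holds 5.25% and 7.26% of the TPM, and the P1 group holds 94.8% and 92.7%.

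The P2 share rests on few reads. Hnf4a-205 is a partial model of 431 nt, of which 180 bases lie outside the exons of all other Hnf4a transcripts, and it was given 12.17 and 20.19 expected counts in the 2 libraries. Measured by expected counts, the P2 share was only 0.43% (exact binomial 95% interval 0.219% to 0.739%) in replicate 1 and 0.604% (0.366% to 0.923%) in replicate 2. The TPM share is larger because the model is far shorter than Hnf4a-202 at 4362 nt. The deposited TPM intervals of Hnf4a-205, 0.397 to 1.58 and 0.715 to 2.11, overlapped, and a difference between the libraries was not tested. P2 reads that fall in shared exons beyond the end of the partial model can be counted only on the P1 transcripts.

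Within P1 the split between transcripts carries no weight. Hnf4a-201 and Hnf4a-202 share 8 of 10 exons base for base and differ by 1 base at the 5′ end and 5 bases at the 3′ end. The deposited counts were nearly all on Hnf4a-202, at 2819.83 and 3321.81, against 0.01 on Hnf4a-201 in each library, while the posterior means gave Hnf4a-201 5.54 and 1.79 TPM. They were therefore summed.

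Prox1 and Foxa2 also have alternative starts. In Prox1 the upstream group, Prox1-202 and Prox1-203, held 82.5% in replicate 1 and 80.3% in replicate 2 (81.4% ± 1.56, SD, n = 2), and Prox1-201, starting downstream at 190169399, held 17.5% and 19.7%. By expected counts Prox1-201 held only 8.23% and 9.38%, since it is 3285 nt long against 7913 nt for Prox1-202. In Foxa2 the upstream start of Foxa2-201 held 66.7% and 72.2% (69.45% ± 3.89), and the start of Foxa2-202, inside the gene, held 33.3% and 27.8%. The leading start was thus the upstream one in both genes and both libraries. The Foxa2 split is loose, since the deposited interval of Foxa2-202 ran from 4.96e-06 to 1.66 TPM in replicate 1.

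Tbx3 RNA was divided between models with and without exon 2a, an alternative exon within the region that codes for the DNA-binding T-box. It is shown in capitals with 24 bases of the flanking exons in lower case, from chr5:119675243-119675302 (GRCm38, plus strand), because it is what sets the Tbx3-201 protein apart.
Tbx3 exon 2a: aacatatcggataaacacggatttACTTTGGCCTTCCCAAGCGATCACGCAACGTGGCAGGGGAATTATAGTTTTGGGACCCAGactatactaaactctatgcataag
The model with the exon, Tbx3-201, was given 0.91 TPM in both libraries, and Tbx3-203, without it, 1.06 and 1.08 TPM. Their shares, 44.26% ± 2.73 and 52.02% ± 2.53 (SD, n = 2), lay close together, and their deposited intervals overlapped widely, at 0.472 to 1.31 and 0.482 to 1.34 TPM in replicate 1. The models also differ at their starts, so the shares do not measure the 60 bases of exon 2a alone.

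**Figure D3:**
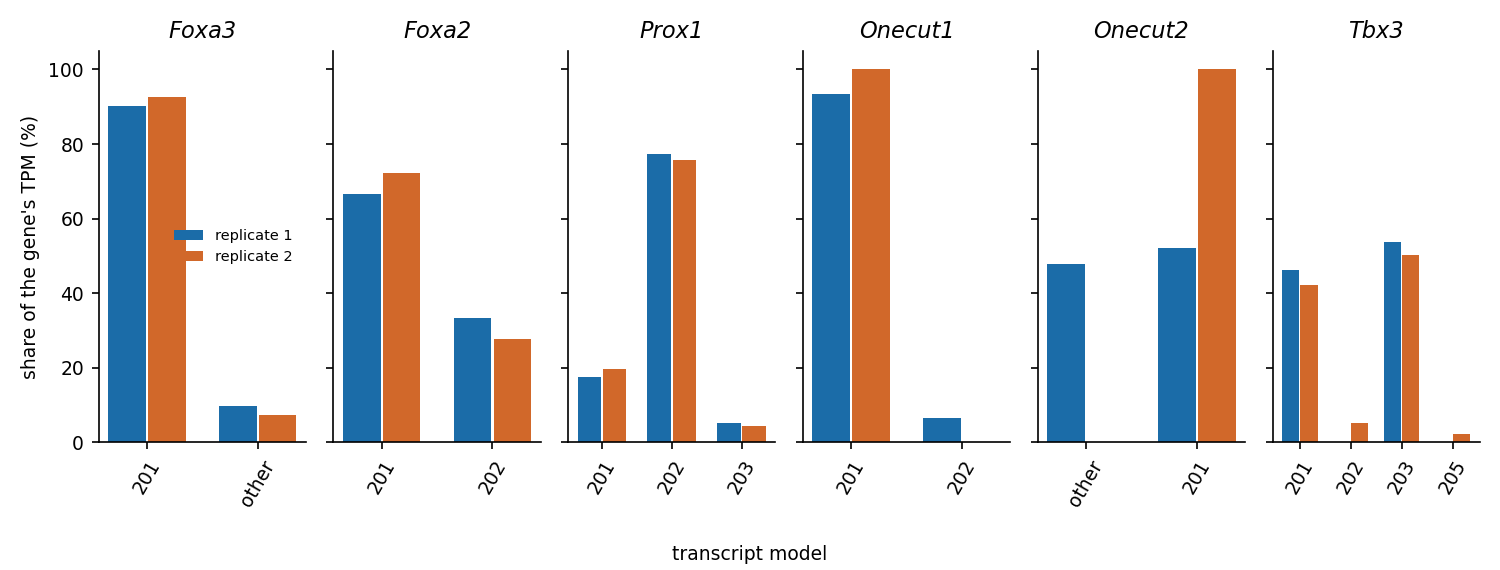
Share of each gene's TPM (percent) by transcript model in replicate 1 and replicate 2, for the 6 factors besides Hnf4a with more than 1 model read; numbers are GENCODE transcript numbers, and "other" is a transcript of the deposited tables not placed in release M21. Foxa3, Foxa2, Prox1, Onecut1 and Tbx3 keep their leading model with similar shares in both libraries, and Onecut2-201 goes from 52.1% to 100%.

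In the remaining genes 1 model led. Foxa3-201 held 91.4% ± 1.7 (SD, n = 2) of Foxa3, Onecut1-201 held 93.4% and 100% of Onecut1, and Foxa1 has a single model. Onecut2 differed, for its 205.25 and 190.75 expected counts in replicate 1 were spread over models of 13391 and 13389 nt, but 442.65 and 1.35 in replicate 2. The posterior means gave the shorter of these 0.39 and 0.35 TPM, without such a swing, and the gene total stood at 0.71 and 0.73 TPM.

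Genes that overlap a factor, or start within 5 kb of it, share or border its reads, and no strand-specific step is stated. Prox1os, antisense to Prox1 with 133 shared exon bases, was read at 2.6 and 2.88 TPM, and its expected counts and those of Prox1 summed to the whole numbers 1773 and 2103. Reads were thus divided between these genes, and both values are uncertain for reads in the shared bases. Prox1os held 79.64 and 95.59 counts beside 1693.36 and 2007.41 for Prox1. The remaining overlapping genes were low: Gm28172, inside Prox1, at 0.82 and 1.13 TPM, Hnf4aos, antisense to Hnf4a with no shared exon base, at 0.19 and 0.51 TPM, and Tbx3os1 at 0.13 and 0.12 TPM. Gm20649, which shares 2171 exon bases with Onecut1 on the same strand, was given no counts, nor was the small RNA gene Gm25881 inside Hnf4a. Of the nearby genes without overlap, Sympk beside Foxa3 stood at 12.21 and 12.02 TPM and 9030622O22Rik beside Foxa2 at a mean of 1.01 ± 0.339 TPM (SD, n = 2).

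To compare the libraries, TPM + 1 in replicate 2 was divided by that in replicate 1, put on the log2 scale and centred so that the median was 0 over genes averaging at least 100 expected counts. The added 1 draws the ratios of genes at low TPM towards 0, and all counts of genes past 1.5-fold use this ratio. None of the 8 factors passed 1.5-fold, beside 1.89% of the 16258 genes compared, so the count of 0 among 8 lies near the background. With 0.1 added in place of 1, 8.37% of the genes passed, and again none of the 8 factors. With 1 added, the median ratio of the 8 factors was 0.07 on the log2 scale, from -0.04 for Foxa1 to 0.28 for Foxa2. Their median absolute ratio of 0.065 lay beside 0.11 for all genes. By TPM 7 of the 8 were higher in replicate 2, and 6 of the 8 after centring. The median of all genes compared also leaned to replicate 2, at 0.026 before centring and 0.007 after. The share of all genes higher in replicate 2 was not counted. Scaling to the spike-ins turned the direction: it moved the median of the genes averaging at least 100 expected counts by -0.31. Of the 8 factors only Foxa2, at 0.03, was then higher in replicate 2.

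**Figure D4:**
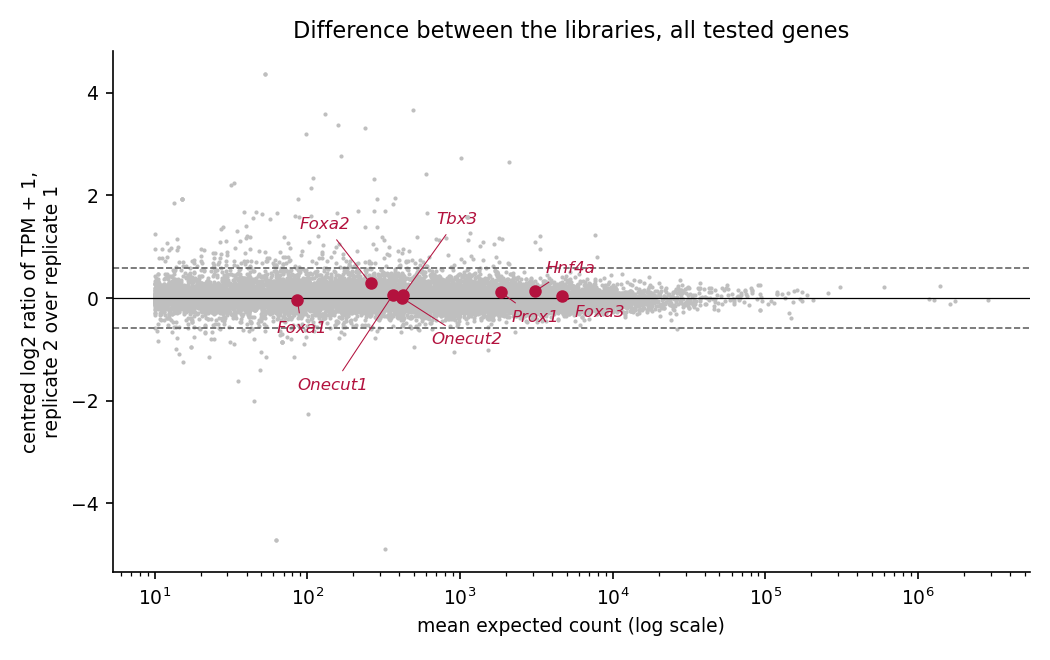
Centred log2 ratio (TPM + 1 in replicate 2 divided by replicate 1) against mean expected count (log scale) for 16147 genes with a symbol (grey) and the 8 factors (red, named); dashed lines mark 1.5-fold. The 8 factors lie between -0.04 and 0.28, inside the dashed lines.

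Some markers of pancreas and of bile ducts were higher in replicate 2, and both tissues are known to make Foxa2. Of 6 pancreas markers 4 had the mean expected count of 10 needed for the comparison, and 2 of these passed 1.5-fold, both higher in replicate 2: Ins2, insulin, from 0.9 to 18.87 TPM, and the acinar enzyme Cpa1 from 1.82 to 9.1 TPM. All 6 pancreas markers together summed to 13.99 TPM in replicate 1 and 45.41 TPM in replicate 2. Of this, Cela1, which did not pass 1.5-fold, held 11.24 and 17.08 TPM. The defining factors Pdx1 and Nkx6-1 had no counts in replicate 1 and stood at 0.07 and 0.01 TPM in replicate 2. Of 7 bile duct (cholangiocyte) markers 3 passed, all higher in replicate 2, Krt19 from 2.5 to 8.28 TPM, Epcam from 0.76 to 5.75 TPM and Muc1 from 0.09 to 0.9 TPM, and the list, led by Spp1 at 17.51 and 21.75 TPM, summed to 23.97 and 40.97 TPM. Of 6 gut and lung markers none was expressed, and of the 3 with enough counts to compare none passed by the ratio of TPM + 1. The gut gene Vil1 stood at 0.6 and 1.42 TPM, and the gut factors Cdx1 and Cdx2 at 0 in replicate 1 and at 0.31 and 0.15 TPM in replicate 2. The lung surfactant gene Sftpc went the other way, at 0.51 and 0.31 TPM, and Nkx2-1 and Sox2 had no counts. Foxa2 (2.52 and 3.34 TPM), Hnf4g (0.32 and 0.87 TPM) and the P2 transcript of Hnf4a (0.87 and 1.34 TPM) were also higher in replicate 2 by TPM. That direction was shared by 7 of the 8 factors and by the median of all genes compared. The deposited intervals of Foxa2 and of the P2 transcript overlapped between the libraries. With spike-in scaling, which the marker values above do not use, the Foxa2 ratio was 0.03 on the log2 scale. By that scaling the median of genes averaging at least 100 expected counts was -0.31. The part of these markers' cells in the Foxa2, Hnf4g and P2 values was not tested.

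**Figure D5:**
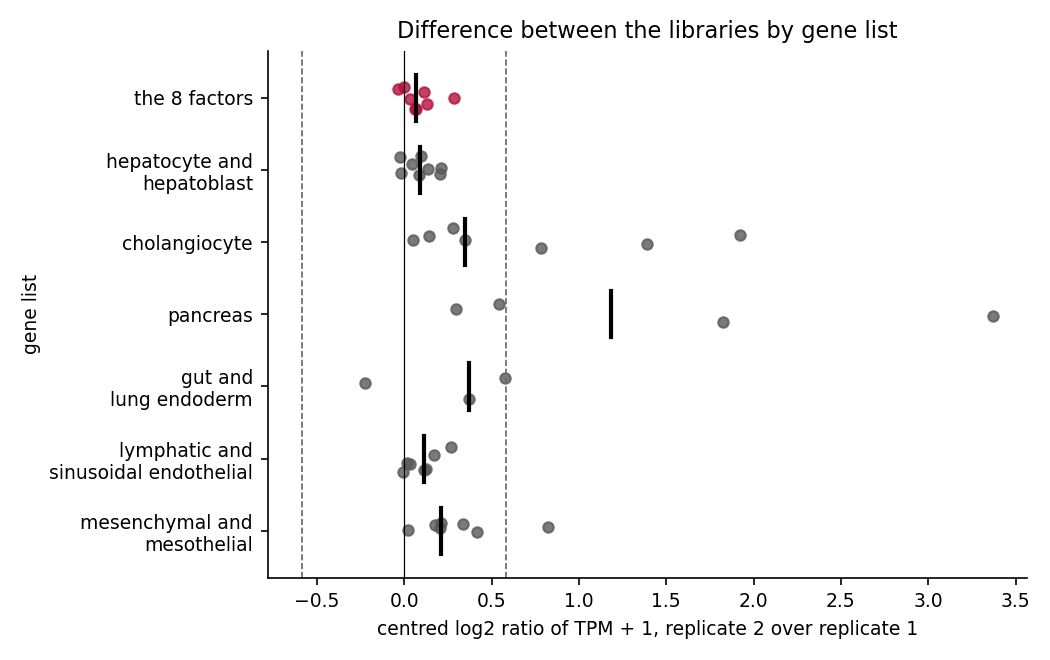
Centred log2 ratio (TPM + 1 in replicate 2 divided by replicate 1) for the 8 factors (red) and 6 lists of cell type markers (grey, averaging at least 10 expected counts); each point is a gene, black bars are medians and dashed lines mark 1.5-fold. The factors and hepatocyte markers stay near 0. Right of the dashed line lie 3 bile duct markers, 2 pancreas markers and 1 mesenchymal marker, Des.

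The hepatocyte markers did not move in this way, with a median ratio of 0.09 and none past 1.5-fold, and neither did the erythroid markers, with a median of 0.04. Of 7 mesenchymal and mesothelial markers 5 were expressed, led by the collagen gene Col1a1 at 57.22 and 77.73 TPM, with Wt1 lowest at 0.71 and 0.96 TPM. The stellate cell and muscle gene Des passed 1.5-fold, from 6.34 to 12.16 TPM. None of 5 neuronal markers was expressed, and only 2 had enough counts to compare. Neither passed 1.5-fold by the ratio of TPM + 1, though Tubb3 (0.31 and 0.56 TPM) differed by more in TPM itself.

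Other liver-enriched transcription factors give the scale for these levels. Of 16 such genes 13 were expressed, with a median of 4.567 ± 0.506 TPM (SD, n = 2). None passed 1.5-fold between libraries by the ratio of TPM + 1, though Nr0b2 (0.44 and 0.79 TPM) differed by more in TPM itself. The fatty acid receptor Ppara (37.45 and 45.38 TPM), the fasting regulator Creb3l3 (34.9 and 39.79 TPM) and Hhex, a homeobox factor of the liver bud (30.07 and 29.24 TPM), led, and the stress-responsive factor Cebpb was lowest (0.41 and 0.53 TPM). Of the 8 factors only Foxa3 exceeded these 3 leading genes.

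Each factor was also set among its own protein family. Of 44 forkhead genes 14 were expressed and 10 were at 0 in both libraries. Foxa3 was the highest, ahead of Foxn3 at 16.33 and 20.53 TPM and the proliferation-linked Foxm1 at 12.5 and 15.49 TPM. In the NR2 family of nuclear receptors 7 of 12 were expressed, with Hnf4a highest, then Nr2f6 (12.4 and 15.07 TPM) and the retinoid X receptor gene Rxrb (12.64 and 13.67 TPM), and Nr2e1 lowest with no counts. Of 9 CUT and Prospero genes 4 were expressed, and here Cux1 (13.92 and 14.92 TPM) stood above Prox1 and Onecut1, with Cux2 at 1.37 and 2.33 TPM. By the ratio of TPM + 1, no gene passed 1.5-fold among the 21 forkhead, 10 NR2 and 7 CUT and Prospero genes with enough counts to compare. The added 1 matters for low genes. Hnf4g (0.32 and 0.87 TPM) and Cux2 differed by more than 1.5-fold in TPM itself, but stood at 0.484 and 0.472 on the log2 scale by this ratio. The forkhead genes Foxq1 (0.97 and 1.52 TPM) and Foxs1 (0.31 and 0.18 TPM, higher in replicate 1) also differed by more than 1.5-fold in TPM.

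Genes that textbooks place under HNF4A were mostly expressed, 12 of 15 with a median of 10.72 ± 1.62 TPM (SD, n = 2). None passed 1.5-fold by the ratio of TPM + 1. The apolipoprotein genes Apoa2 (7675.9 and 7737.11 TPM) and Apoa1 (5998.77 and 6502.1 TPM) and the thyroxine carrier Ttr (1418.14 and 1579.11 TPM) led. G6pc, the last enzyme of glucose release and known to be switched on around birth, was lowest at 0.13 and 0.23 TPM. In TPM itself G6pc and Apoc3 (7.89 and 11.87 TPM) differed by more than 1.5-fold. Of 9 Foxa targets 7 were expressed, with a median of 298.9 ± 4.72 TPM, led by the fetal serum protein Afp (13666.97 and 13628.83 TPM) and Alb, albumin (6489.71 and 7615.16 TPM). The amino acid enzyme Tat, another gene known to rise at birth, was the lowest at 0.31 and 0.39 TPM. The target lists share genes, so they are not separate evidence.

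Coregulators that these factors recruit were nearly all present, 13 of 14 with a median of 4.16 ± 0.608 TPM. The deacetylase gene Hdac3 (28.61 and 26.77 TPM) and its partner Ncor1 (16.5 and 20.06 TPM) led, followed by the acetyltransferase gene Crebbp (8.12 and 7.33 TPM), and the coactivator Ncoa1 was lowest (0.68 and 0.62 TPM). Of 9 genes linked to Tbx3, Prox1 and the Onecut factors 5 were expressed, led by Cdkn1a, a cell cycle inhibitor (12.68 and 16.36 TPM), and the TGF-beta receptor Tgfbr2 (6.17 and 7.89 TPM). Cdkn2a, which encodes the cell cycle inhibitor that Tbx3 is known to repress, had no counts in either library, which allows up to 0.092 TPM in replicate 1 and 0.0852 TPM in replicate 2. By the ratio of TPM + 1, none of the 14 coregulators passed 1.5-fold, nor did any of the 7 linked genes with enough counts to compare. In TPM itself the coregulator gene Tle2 (1.56 and 2.39 TPM) and the linked gene Tgfb2 (0.77 and 1.41 TPM) differed by more than 1.5-fold.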

How the data were processed

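Both E16.5 liver libraries were read from the deposited gene and transcript tables, quantified on mm10 with GENCODE M4 per the file headers and deposited notes; column names are those of RSEM, and aligner and versions are not given in the sources used here. Deposited expected counts are estimated counts. The authors' TPM sums to 1000000 over all rows, spike-ins included. The authors' FPKM served only to check the order of levels. Deposited TPM interval bounds were treated as a score of unstated level. The deposited isoform percent was recomputed from TPM. IDs were matched without version to GENCODE M21 (42462 of 43346 genes), 2 transcripts unmatched.

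The genes and 17 lists were chosen with earlier results of these data known. Named are the 8 factors, the 3 highest and the lowest gene of each list, family paralogs, overlapping genes and those within 5 kb. Some marker genes of that rule were left out of the text. Ccl21a, Tbr1, Tbx22, Brachyury, Hnf4g, Onecut3, Prox2 and further genes of the lists that differed between libraries, or were at 0, were added after their values were seen. Starts within 500 bases were grouped. The ratio used a pseudocount of 1 and a mean expected count of 10. No test was possible with 1 group, and p-values are not given. Ratio intervals cover counting error only, as reads carry no molecular identifiers, and the spread is that between 2 pools the labels call biological replicates. The ratio calculation was tested on simulated data, with a far smaller pseudocount and with changes set only in well-counted genes. That test therefore does not cover how the pseudocount of 1 acts on genes at low TPM. Scaling alternatives used TMM factors (edgeR 4.0.16) and size factors (DESeq2 1.42.0) in R 4.3.3, with expected counts rounded; other steps used python 3.11.15, numpy 2.4.6, pandas 2.3.3, scipy 1.17.1 and matplotlib 3.10.9. Further alternatives were other thresholds, pseudocounts and count filters, posterior mean TPM, TPM over annotated nuclear genes, spike-in totals, expected counts without length, start-site windows and each library alone.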

Additional observations from a re-analysis of the deposited data

How the results depend on the processing

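The median level of the 8 factors was 2.562 TPM and 2.31 to 2.815 TPM in single libraries, and other scalings left it within the spread between libraries. Of the 8 factors 6 were expressed at 1 TPM, 3 at 5 TPM, 5 at 2 TPM, and all 8, Onecut2 and Foxa1 included, at 0.5 TPM or at 10 expected counts. Of the list genes 93 were expressed at 1 TPM, 55 at 5 TPM and 115 at 0.5 TPM. Without division by length 4 of 8 factors kept their rank, the Hnf4a P1 share was 99.48% instead of 93.75%, the median leading-transcript share of the other 7 factors 88.99% instead of 76.53%, and the family shares of Foxa3, Onecut1 and Prox1 93.11%, 46.22% and 95.6% instead of 93.92%, 75.03% and 89.58%. The leading-transcript share was 77.31% to 92.62% in single libraries, where Onecut2 decides it. No factor passed 1.5-fold under any scaling, pseudocount or filter tried. The smaller fold was tried only with 1 added to TPM, and no factor passed it there. That result depends on the pseudocount. The log2 ratio of Foxa2 was 0.284 with 1 added, below the smaller fold. It was 0.327 with 0.5 added and 0.372 with 0.1 added, both past the smaller fold. Of 132 alternative values for single genes 12 moved beyond their spread. Start-site windows of 50 and 2000 bases, protein-coding transcripts only and the deposited isoform percent left the P1 share at 93.75%. They could not move it, because Hnf4a-203 and Hnf4a-204 were at 0 TPM and the isoform percent is the same share of TPM. By posterior mean TPM the P1 share was 92.9%. The protein identity comparison was not run. No paired analysis was possible because the 2 libraries form 1 group. Foxa1, at 84 and 88 expected counts, and the P2 transcript of Hnf4a are limited by depth.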
